A study of Caenorhabditis elegans with 6 samples.

Results

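The methionine cycle, the transsulfuration route and the thiol methyltransferase *rips-1* were examined in whole *vhl-1* mutants and wild type animals through 10 genes of *C. elegans*: *sams-1*, *sams-3*, *sams-4*, *sams-5*, *metr-1*, *ahcy-1*, *cbs-1*, *cth-1*, *cth-2* and *rips-1*. The genes were chosen by name, and each matched 1 of the 46778 gene identifiers of the count data. RNA was sequenced from age-synchronized young adult *vhl-1(ok161)* mutants, which carry a null allele of the gene for the worm counterpart of the VHL tumor suppressor, and from wild type animals without that allele, with 3 biological replicates of each genotype. All animals were kept at 20 °C without starvation. Each library held the RNA of whole animals, so no tissue was separated.

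The methionine cycle turns methionine into S-adenosylmethionine (SAM), the methyl donor of the cell, through SAM synthetases, and the spent donor is hydrolyzed to homocysteine. Homocysteine is either methylated back to methionine by the vitamin B12-dependent methionine synthase or passed on to cystathionine and cysteine by the transsulfuration enzymes. VHL-1 marks the transcription factor HIF-1 for degradation, and in worms HIF-1 is known to activate genes that handle hydrogen sulfide, a product of cysteine metabolism.

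The libraries held between 60286645 and 82910026 reads on genes in *vhl-1* mutants and between 52462303 and 78205244 in wild type animals, and 0.565% to 0.726% of each library fell on the 10 genes. *vhl-1* itself had 0.0830, 0.0369 and 0.0162 CPM in the 3 mutant libraries, against 6.37, 7.08 and 7.49 CPM in wild type animals. CPM is the count of a gene relative to the total of its library (counts per 1000000 reads), scaled by the TMM method. The markers listed for intestine, yolk, germline, oocyte, sperm, body wall muscle, hypodermis and neurons were all detected. Libraries differed in the summed level of the 6 oocyte markers, which lay between 318 and 1255 CPM in *vhl-1* mutants and between 450 and 1423 CPM in wild type animals. The 6 yolk protein genes summed to between 796 and 6354 CPM in *vhl-1* mutants and between 4879 and 17322 CPM in wild type animals. *vhl-1* replicate 2 had the lowest level of both lists.

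All 10 genes passed the filter on low counts. *rips-1* was the only one of them that passed the threshold of 0.05 on the adjusted p-value, in edgeR's quasi-likelihood test with Benjamini-Hochberg adjustment over 16596 genes. Over all genes tested, 1.25% passed. 1 of the 10 genes was higher in *vhl-1* mutants, beside 0.874% of all genes tested. None was lower, beside 0.374% of all genes. At an unadjusted p under 0.05, 2 of the 10 were higher and 2 lower, beside 9.38% of all genes in either direction. DESeq2, the tool named in the methods of the study, called *rips-1* higher and 2 genes, *cth-1* and *cth-2*, lower, and called 3.4% of the genes to which it gave an adjusted p. limma-voom called *rips-1* alone. The median log2 fold change of the 10 genes was 0.07, against 0.0059 over all genes tested.

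**Figure D1:**
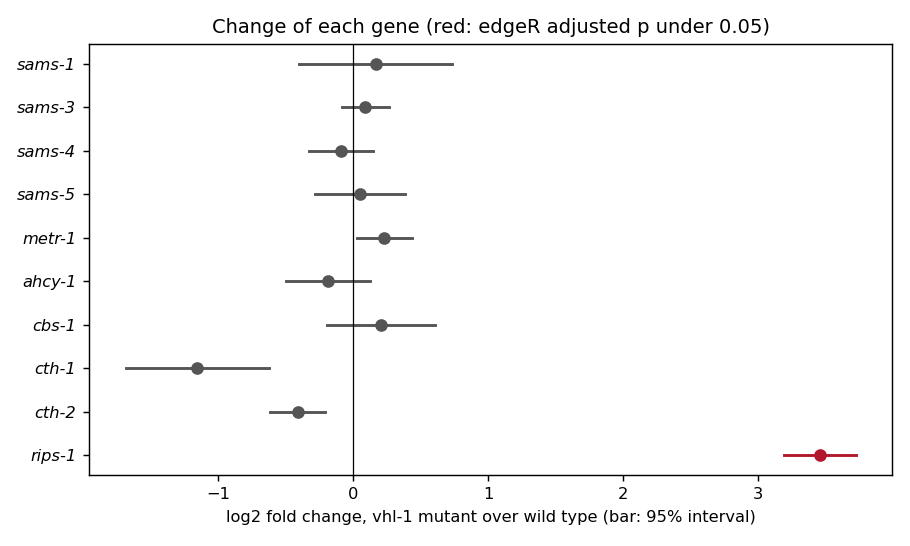
Log2 fold change of each of the 10 genes in *vhl-1* mutants over wild type (horizontal axis), with its 95% interval as a bar, from edgeR with 3 libraries a genotype. *rips-1*, in red, stands at 3.46, the interval of *cth-1* runs from -1.69 to -0.62, and the intervals of the 4 SAM synthetase genes all include 0.

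*rips-1* encodes a thiol methyltransferase, an enzyme that takes its methyl group from SAM. The gene (WBGene00019963) is on chromosome V, plus strand, from 3772021 to 3774609 in WBcel235, with 5 exons and 1 annotated transcript. It had 72944, 59813 and 48184 reads in the *vhl-1* libraries, or 865, 735 and 782 CPM, against 5217, 4667 and 3764 reads in the wild type libraries, or 66.4, 74.7 and 75.5 CPM. Every mutant library lay far above every wild type library, and the libraries of 1 genotype lay close to each other. *rips-1* averaged 794 ± 65.8 CPM in *vhl-1* mutants and 72.2 ± 5.07 CPM in wild type animals (SD, n = 3 each). The fold change was 10.997, with a 95% interval from 9.15 to 13.2. On the log2 scale it was 3.46 with a standard error (SE) of 0.11 (adjusted p = 9.16e-05 by edgeR). In whole animals, more cells that express the gene and more RNA per cell cannot be told apart.

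The share of *rips-1* in the summed CPM of the 10 genes lay between 10.1% and 14.98% in *vhl-1* mutants and between 1.18% and 1.24% in wild type animals. Scaled to the length of its exons, *rips-1* stood at 551 ± 45.6 CPM per kb in *vhl-1* mutants and 50.1 ± 3.52 CPM per kb in wild type animals (SD, n = 3 each). By this level it ranked 2 of the 10 genes in *vhl-1* mutants, behind *ahcy-1* and overlapping with *sams-1*. In wild type animals it ranked 5, with a range that overlapped that of *sams-4*.

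The genes whose pattern was most like that of *rips-1* were found as those with the smallest distance to it in centred log2 CPM over the 6 libraries, as a description. They were *nhr-57* (distance 0.23), *C32H11.4* (0.42), *R08E5.1* (0.48), *srx-125* (0.53) and *oac-54* (0.68), where the median distance over all genes tested was 4.26. *nhr-57*, a nuclear hormone receptor gene known as a HIF-1 target, had 56.7, 50.1 and 56.2 CPM in *vhl-1* mutants, against 4.49, 4.43 and 5.44 CPM in wild type animals.

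*R08E5.1* and *cysl-3*, of which only *R08E5.1* is among these 5 genes, lie on either side of *rips-1* on chromosome V. *R08E5.1* (WBGene00019961), on the minus strand from 3769798 to 3771518, had 27.4, 24.5 and 24.8 CPM in *vhl-1* mutants, against 2.67, 2.45 and 1.91 CPM in wild type animals. Its groups did not overlap, and its log2 fold change of 3.44 (SE 0.17, adjusted p = 0.00041 by edgeR) was close to that of *rips-1*, with each genotype at a far lower level than *rips-1*. How reads that map to several genes were counted is not given in the sources used here. Whether reads of *rips-1* entered the count of *R08E5.1* was not tested. *cysl-3* (WBGene00019962), a gene of the cysteine synthase-like family, lies on the minus strand from 3774536 to 3776136. It had 51.4, 51.6 and 48.9 CPM in *vhl-1* mutants, against 9.53, 13.9 and 13.7 CPM in wild type animals, and a log2 fold change of 2.04 (SE 0.16, adjusted p = 0.0034 by edgeR). The exons of *cysl-3* and *rips-1* share 74 bases on opposite strands, which is 5.14% of the exonic bases of *rips-1*. Since no source used here gives the strand setting of the counting, reads of either gene from that stretch could not be told apart. Their part in the change of *cysl-3* was not tested. Farther along, 2 genes were looked up after values had been seen. *R08F11.1* (WBGene00019965, from 3777297 to 3784217) had a log2 fold change of -0.14 (SE 0.14, adjusted p = 0.93 by edgeR), with overlapping groups. *R08F11.4* (WBGene00019968, from 3803839 to 3805527) had 1.22, 3.63 and 1.48 CPM in *vhl-1* mutants, against 1.08, 0.977 and 0.462 CPM in wild type animals. Its groups did not overlap, but its log2 fold change of 1.31 (SE 0.52, adjusted p = 0.49 by edgeR) did not pass the threshold.

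**Figure D2:**
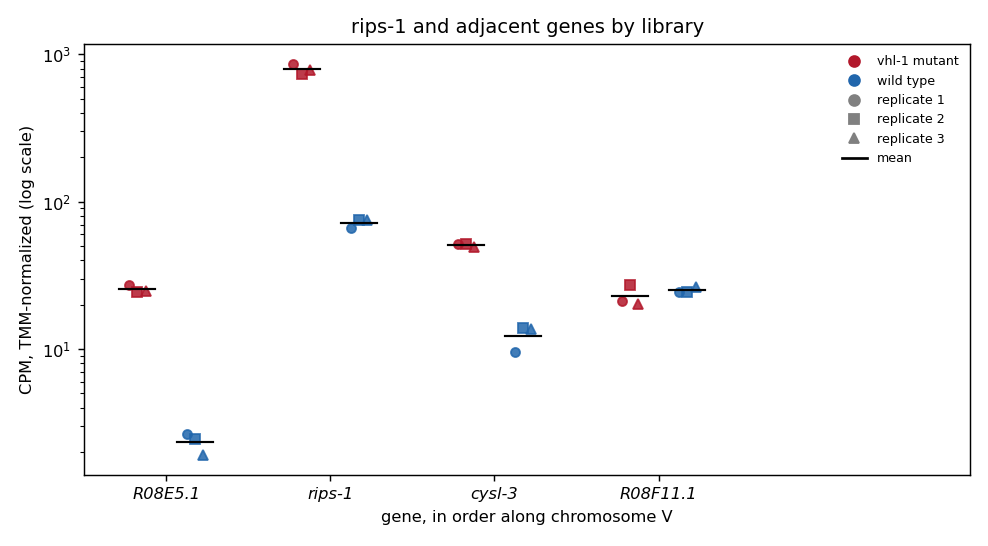
CPM of *rips-1* and of adjacent genes on chromosome V in each library, on a log axis, with *vhl-1* mutants in red to the left of wild type animals in blue, 1 marker shape per replicate and a line at the mean of 3 libraries. *R08E5.1*, *rips-1* and *cysl-3* are separated between the genotypes, with mutant means of 25.5, 794 and 50.7 CPM against wild type means of 2.34, 72.2 and 12.4 CPM, whereas the points of *R08F11.1* overlap.

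Cystathionine gamma-lyase, which cleaves cystathionine to cysteine, is encoded by *cth-1* and *cth-2*. Both genes were lower in every *vhl-1* library than in any wild type library. *cth-1* (WBGene00009048), on chromosome V from 16100680 to 16102750, had 12.2, 21.8 and 18.5 CPM in *vhl-1* mutants, against 40.1, 34.2 and 42.7 CPM in wild type animals. It averaged 17.5 ± 4.904 CPM in *vhl-1* mutants and 39.0 ± 4.36 CPM in wild type animals (SD, n = 3 each), so the mutant mean was 44.9% of the wild type mean. Its log2 fold change of -1.16 (SE 0.22, 95% interval -1.69 to -0.62) did not pass the threshold in edgeR's quasi-likelihood test (adjusted p = 0.080). The threshold was passed by DESeq2, with -1.17 and an adjusted p of 0.00018, and in edgeR without the filter on low counts (adjusted p = 0.045). *vhl-1* replicate 1 was the lowest library, and without it the log2 fold change was -0.95 (edgeR adjusted p = 0.085). The threshold was missed with each of the 6 libraries left out in turn, and the edgeR adjusted p was 0.31 without *vhl-1* replicate 3.

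*cth-2* (WBGene00022856), on chromosome II from 7056184 to 7057960, had 225, 207 and 206 CPM in *vhl-1* mutants, against 296, 265 and 287 CPM in wild type animals. The mutant mean was 75.2% of the wild type mean, and the log2 fold change of -0.41 (SE 0.086, 95% interval -0.62 to -0.21) missed the threshold (edgeR adjusted p = 0.10). With DESeq2 the value was -0.42 and passed (adjusted p = 0.026). In edgeR *cth-2* missed the threshold with each library left out in turn, and the adjusted p was 0.485 without *vhl-1* replicate 3. Its exons share 8 bases with those of *ZK1127.3* on the opposite strand, a gene with a log2 fold change of 0.07 (adjusted p = 1.00 by edgeR).

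Per kb of exon, *cth-2* was the more abundant of the pair in every library. *cth-1* took 5.26%, 9.78% and 8.44% of their summed reads per kb in *vhl-1* mutants, against 12.2%, 11.7% and 13.2% in wild type animals. This share does not depend on how libraries are scaled, and the genotypes did not overlap in it. The mean share was 7.82 ± 2.32% in *vhl-1* mutants and 12.4 ± 0.774% in wild type animals (SD, n = 3 each; two-sided exact permutation test, p = 0.1, the smallest that 3 against 3 libraries allow). Both genes together gave 173 ± 5.01 CPM per kb in *vhl-1* mutants and 243 ± 15.1 CPM per kb in wild type animals (SD, n = 3 each). The mutant sum was 71.4% of the wild type sum. Since each gene alone separated the genotypes in the same direction, their sum had to do so too.

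*cbs-1* encodes cystathionine beta-synthase, which forms cystathionine from homocysteine and serine and so stands 1 step before the *cth* genes. The gene (WBGene00013866) lies on chromosome X from 10054275 to 10057528. It had 22.6, 32.7 and 25.4 CPM in *vhl-1* mutants, against 20.5, 25.5 and 24.1 CPM in wild type animals, with overlapping groups and the highest value in *vhl-1* replicate 2. Its log2 fold change was 0.21 (SE 0.17, 95% interval -0.19 to 0.60, adjusted p = 0.89 by edgeR). Per kb of exon *cbs-1* had the lowest mean level of the 10 genes in both genotypes, 11.7 ± 2.25 CPM per kb in *vhl-1* mutants and 10.2 ± 1.12 CPM per kb in wild type animals (SD, n = 3 each), although its range overlapped that of *cth-1* in *vhl-1* mutants.

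The 4 SAM synthetase genes catalyze the entry step from methionine to SAM, and none of them passed the threshold with edgeR, DESeq2 or limma-voom. *sams-1* (WBGene00008205), on chromosome X from 11965962 to 11969893, had 739, 1320 and 850 CPM in *vhl-1* mutants, against 709, 987 and 899 CPM in wild type animals. The groups overlapped, and *vhl-1* replicate 2 stood above the rest. Its log2 fold change was 0.16 (SE 0.24, 95% interval -0.41 to 0.74, adjusted p = 0.99 by edgeR), and it was -0.12 without *vhl-1* replicate 2. The spread of *sams-1* in *vhl-1* mutants, a coefficient of variation of 31.8%, was the widest of the 10 genes, where the median over all genes tested was 15.4%. In the same libraries the summed oocyte markers stood at 1255, 318 and 838 CPM in *vhl-1* mutants and 1423, 763 and 450 CPM in wild type animals. The mutant library with the lowest oocyte level thus had the highest *sams-1* level. In wild type animals the oocyte level was lowest in replicate 3, whereas *sams-1* was highest in replicate 2. With the oocyte level as a covariate, chosen after the data were seen, the log2 fold change of *sams-1* was 0.06 (adjusted p = 0.85 by edgeR). The part of the oocyte level in the spread of *sams-1* was not tested.

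*sams-3* and *sams-4* are close paralogs that lie head to head on chromosome IV, from 5848657 to 5850843 and from 5844061 to 5846369, with 2287 bases between them. *sams-3* (WBGene00015538) had 74.2, 76.6 and 78.1 CPM in *vhl-1* mutants, against 70.1, 71.7 and 73.1 CPM in wild type animals. The groups did not overlap, but the gap was small, with a log2 fold change of 0.09 (SE 0.071, 95% interval -0.08 to 0.26, adjusted p = 0.89 by edgeR). The exons of *sams-3* share 18 bases with those of *C06E7.4* on the opposite strand, a gene with a log2 fold change of -0.32 (adjusted p = 0.78 by edgeR). *sams-4* (WBGene00015540) had 86.7, 77.2 and 85.2 CPM in *vhl-1* mutants, against 82.9, 84.0 and 97.9 CPM in wild type animals, and a log2 fold change of -0.09 (SE 0.099, adjusted p = 0.96 by edgeR). How reads that map to both paralogs were counted is not given in the sources used here, so their counts were also added together, which gave a log2 fold change of -0.0053 (95% interval -0.20 to 0.19, edgeR adjusted p = 1.00).

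*sams-5* (WBGene00006416), on the same chromosome from 6277433 to 6279522, had 59.0, 42.6 and 55.3 CPM in *vhl-1* mutants, against 53.0, 52.6 and 45.8 CPM in wild type animals. On the log2 scale the difference was 0.05 (SE 0.14, 95% interval -0.28 to 0.39, adjusted p = 1.00 by edgeR), and its lowest value was that of *vhl-1* replicate 2, where *sams-1* was highest. Of the summed reads per kb of the 4 genes, *sams-1* took 72.7%, 84.4% and 75.6% in *vhl-1* mutants and 73.3%, 79.1% and 77.0% in wild type animals. The genotypes overlapped in this share (difference of the means 1.17 percentage points, two-sided exact permutation test, p = 0.9), and without *vhl-1* replicate 2 the difference was -2.24 percentage points.

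**Figure D3:**
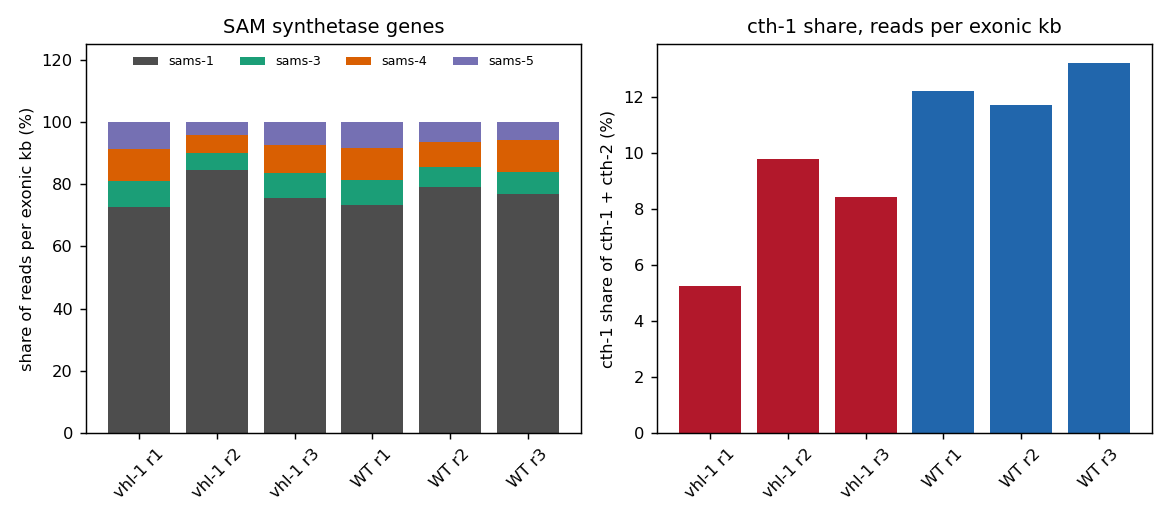
Left, the share of each of the 4 SAM synthetase genes in their summed reads per exonic kb, in percent, in the 3 *vhl-1* libraries and then the 3 wild type libraries, where *sams-1* takes between 72.7% and 84.4% of each bar. Right, the share of *cth-1* in the summed reads per exonic kb of *cth-1* and *cth-2*, where the 3 *vhl-1* libraries reach at most 9.78% and the wild type libraries at least 11.7%.

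*metr-1* encodes methionine synthase, which methylates homocysteine back to methionine with vitamin B12 as its cofactor. The gene (WBGene00010988), on chromosome II from 10926561 to 10931078, had 720, 772 and 773 CPM in *vhl-1* mutants, against 617, 633 and 683 CPM in wild type animals. All mutant libraries were higher than all wild type libraries, by a fold change of 1.17 (95% interval 1.02 to 1.35). The log2 fold change of 0.23 (SE 0.084) had an unadjusted p of 0.032 in edgeR and did not pass after adjustment (adjusted p = 0.43). *metr-1* averaged 191.3 ± 7.70 CPM per kb in *vhl-1* mutants and 163 ± 8.80 CPM per kb in wild type animals (SD, n = 3 each). By this level it stood above *cth-2* in *vhl-1* mutants and below it in wild type animals, with no overlap of the pair in either genotype.

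*ahcy-1* encodes adenosylhomocysteinase, which hydrolyzes the product left after SAM has given up its methyl group. It (WBGene00019322, chromosome I from 6836469 to 6838140) was the most abundant of the 10 genes in both genotypes, with 2186 ± 362 CPM per kb in *vhl-1* mutants and 2490 ± 91.8 CPM per kb in wild type animals (SD, n = 3 each). The libraries had 2968, 3994 and 3110 CPM in *vhl-1* mutants, against 3663, 3926 and 3883 CPM in wild type animals. Mutant replicates 1 and 3 lay below the wild type range and replicate 2 above it. The log2 fold change was -0.19 (SE 0.13, 95% interval -0.50 to 0.13, adjusted p = 0.85 by edgeR), and it was -0.33 without *vhl-1* replicate 2, when it still missed the threshold (adjusted p = 0.22).

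The groups did not overlap in 5 of the 10 genes: *sams-3*, *metr-1* and *rips-1* were higher and *cth-1* and *cth-2* lower in every *vhl-1* library. Over all genes tested the groups did not overlap in 14.4%, with 6.97% higher and 7.48% lower.

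**Figure D4:**
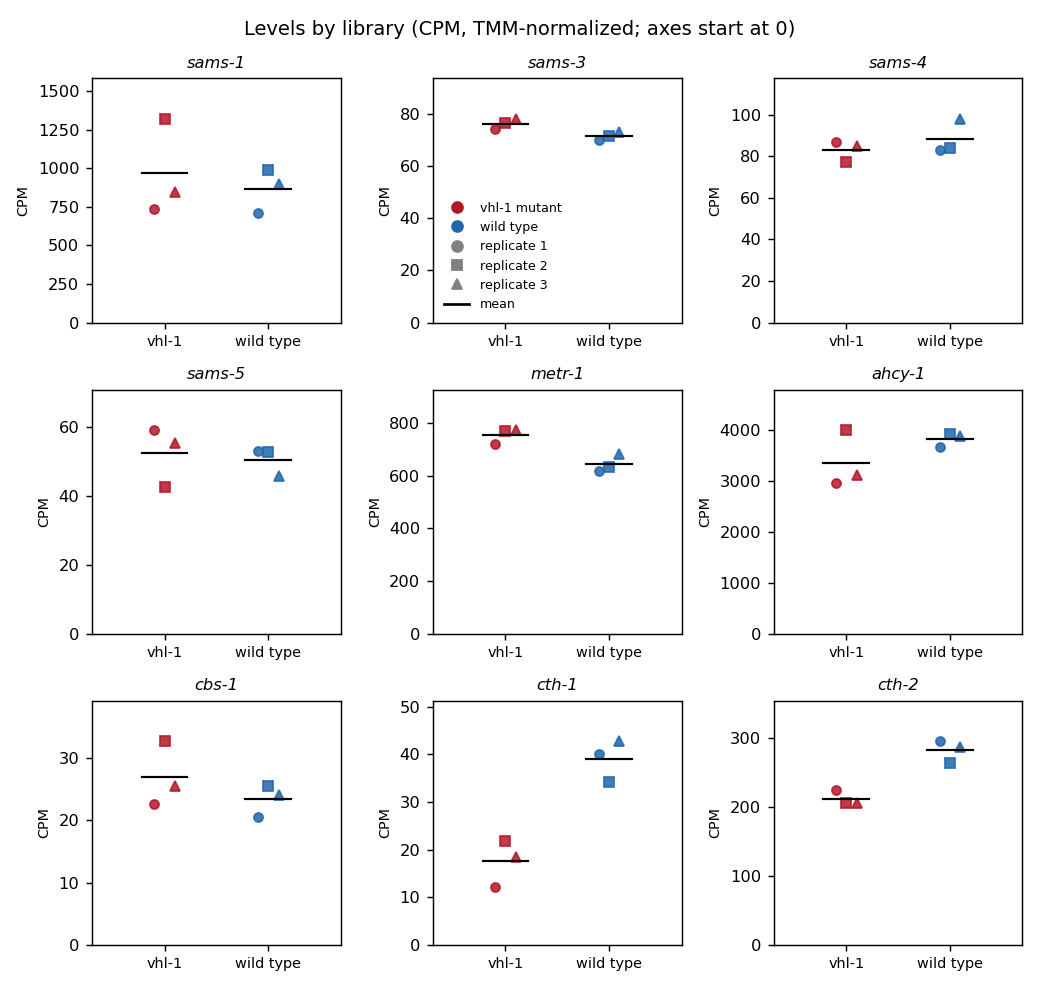
CPM of the 9 genes other than *rips-1* in each library, on axes that start at 0, with *vhl-1* mutants in red to the left of wild type animals in blue, 1 marker shape per replicate and a line at the mean of 3 libraries. The groups are apart for *sams-3*, *metr-1*, *cth-1* and *cth-2*, and *vhl-1* replicate 2 (red squares) is the highest library for *sams-1*, *ahcy-1* and *cbs-1*.

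Genes of the linked pathways were read from lists drawn up from general knowledge, with earlier results of these data known. Their counts beside the shares of all genes are therefore a description. Of 12 genes for folate and vitamin B12 enzymes that feed the methionine cycle, none passed the threshold in either direction with edgeR or limma-voom. An unadjusted p under 0.05 in edgeR was found for 3 of the 12, beside 9.38% of all genes tested. DESeq2 called 1 of the 12, beside 3.4% of the genes to which it gave an adjusted p. The 12 genes had a median log2 fold change of -0.15. The extremes were *cblc-1*, which acts in the processing of vitamin B12 (log2 fold change 0.44, edgeR adjusted p = 0.59), and *atic-1*, an enzyme of purine synthesis that uses a folate (-0.78, edgeR adjusted p = 0.18 and DESeq2 adjusted p = 0.028). *atic-1* had 89.4, 78.1 and 88.2 CPM in *vhl-1* mutants, against 111, 136 and 193 CPM in wild type animals, with wild type replicate 3 well above the others.

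The same cofactor serves a second enzyme, the methylmalonyl-CoA mutase *mmcm-1* in the breakdown of propionate, and worms also have a propionate shunt that needs no vitamin B12. Of the 13 genes listed for both routes and their regulators, 1 passed the threshold with edgeR, beside 1.25% of all genes tested. *mce-1*, the methylmalonyl-CoA epimerase of the B12-dependent route, had 77.4, 99.8 and 83.4 CPM in *vhl-1* mutants, against 38.7, 39.2 and 41.5 CPM in wild type animals. The mutants were higher by 1.13 on the log2 scale (SE 0.11, adjusted p = 0.0088 by edgeR). The call was lost without *vhl-1* replicate 3 (1.15, adjusted p = 0.064) and without wild type replicate 2 (1.10, adjusted p = 0.084).

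The other genes of both routes are described here after their values were seen. All 5 genes of the B12-dependent route (*pcca-1*, *pccb-1*, *mce-1*, *mmcm-1*, *mmaa-1*) had mutant libraries above all wild type libraries, with log2 fold changes from 0.56 to 1.13, and DESeq2 called all 5, whereas edgeR and limma-voom each called 1, *mce-1*. Over all genes tested, 6.97% were higher and 7.48% lower without overlap, and DESeq2 called 3.4%. In 4 of the 5 shunt genes (*acdh-1*, *ech-6*, *hach-1*, *hphd-1*) the mutant libraries lay below all wild type libraries, and DESeq2 called the same number lower. edgeR called none of the 5 shunt genes (smallest adjusted p = 0.051), and limma-voom called none. An unadjusted p under 0.05 in edgeR was found for 4 of the 5 shunt genes, beside 9.38% of all genes tested. The lowest was *hach-1*, a hydrolase of the shunt, with 257, 213 and 234 CPM in *vhl-1* mutants, against 416, 336 and 413 CPM in wild type animals and a log2 fold change of -0.73 (SE 0.12, adjusted p = 0.051 by edgeR). The first shunt enzyme, the acyl-CoA dehydrogenase *acdh-1*, had 1863, 1671 and 1766 CPM in *vhl-1* mutants, against 2434, 2420 and 2933 CPM in wild type animals. The log2 difference was -0.56 (adjusted p = 0.084 by edgeR and 0.0060 by DESeq2). The regulators *nhr-10*, *nhr-68* and *nhr-114* had log2 fold changes of -0.03, -0.24 and -0.45, with overlapping groups.

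Other enzymes that spend SAM were also examined. Of 15 listed methyltransferase genes, none passed the threshold with edgeR, DESeq2 or limma-voom. An unadjusted p under 0.05 in edgeR was found for 1 of the 15, beside 9.38% of all genes tested. The median log2 fold change of the 15 genes was -0.01. Values ran from -0.34 for *pmt-2* to 0.12 for *pmt-1* (edgeR adjusted p = 0.52 and 0.95), the pair of phosphoethanolamine methyltransferases on the route to phosphatidylcholine. *mett-10*, the RNA methyltransferase known to modify transcripts of SAM synthetase genes, was singled out after its values were seen and had 17.3, 15.3 and 16.0 CPM in *vhl-1* mutants and 16.3, 15.9 and 15.7 CPM in wild type animals.

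Several genes downstream of cysteine and of thiols were higher in *vhl-1* mutants. Of the 21 identifiers matched for these branches, 18 passed the filter on low counts, and 5 were higher and 0 lower with edgeR, with a median log2 fold change of -0.0066. DESeq2 called 7 and limma-voom 6. Over all genes tested, edgeR called 0.874% higher and 0.374% lower, and DESeq2 called 3.4% in either direction. The 5 genes were *sqrd-1*, *semo-1*, *mpst-3*, *ethe-1* and *cysl-3*, and each kept its call without any 1 library. *cysl-2*, singled out after its values were seen, had a log2 fold change of 2.04 and narrowly missed the threshold in edgeR (adjusted p = 0.051). It passed with limma-voom (adjusted p = 0.044) and DESeq2 (adjusted p = 2.1e-07). *cysl-3* shares 74 exonic bases with *rips-1*, and whether reads of *rips-1* entered the count of *cysl-3* was not tested. *semo-1*, which encodes the methanethiol oxidase of the worm, had 449, 545 and 447 CPM in *vhl-1* mutants, against 59.8, 81.6 and 44.3 CPM in wild type animals. This is a log2 fold change of 2.95 (SE 0.24, adjusted p = 0.0035 by edgeR). *mpst-3*, of the mercaptopyruvate sulfurtransferase family, had 151, 130 and 147 CPM in *vhl-1* mutants, against 20.3, 23.8 and 26.3 CPM in wild type animals. The log2 fold change was 2.604 (SE 0.13, adjusted p = 0.00041 by edgeR). The sulfide oxidation genes *sqrd-1* and *ethe-1* had log2 fold changes of 5.02 and 2.54, with adjusted p = 9.16e-05 and 0.00083 by edgeR.

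The lowest value of the list was that of *msra-1*, a methionine sulfoxide reductase, with 367, 369 and 360 CPM in *vhl-1* mutants, against 440, 494 and 624 CPM in wild type animals (log2 fold change -0.51, edgeR adjusted p = 0.21). The genes for glutathione synthesis from cysteine, *gcs-1* and *gss-1*, differed by -0.05 and 0.01 on the log2 scale, and *cdo-1*, the cysteine dioxygenase, had -0.02, all with overlapping groups (edgeR adjusted p = 0.99, 1.00 and 1.00). These 3 genes were singled out after their values were seen. Of the HIF-1 regulators, the prolyl hydroxylase gene *egl-9* and its upstream regulator *rhy-1* were higher in *vhl-1* mutants, by 1.99 and 2.98 on the log2 scale, with adjusted p = 0.0031 and 0.0014 by edgeR.

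**Figure D5:**
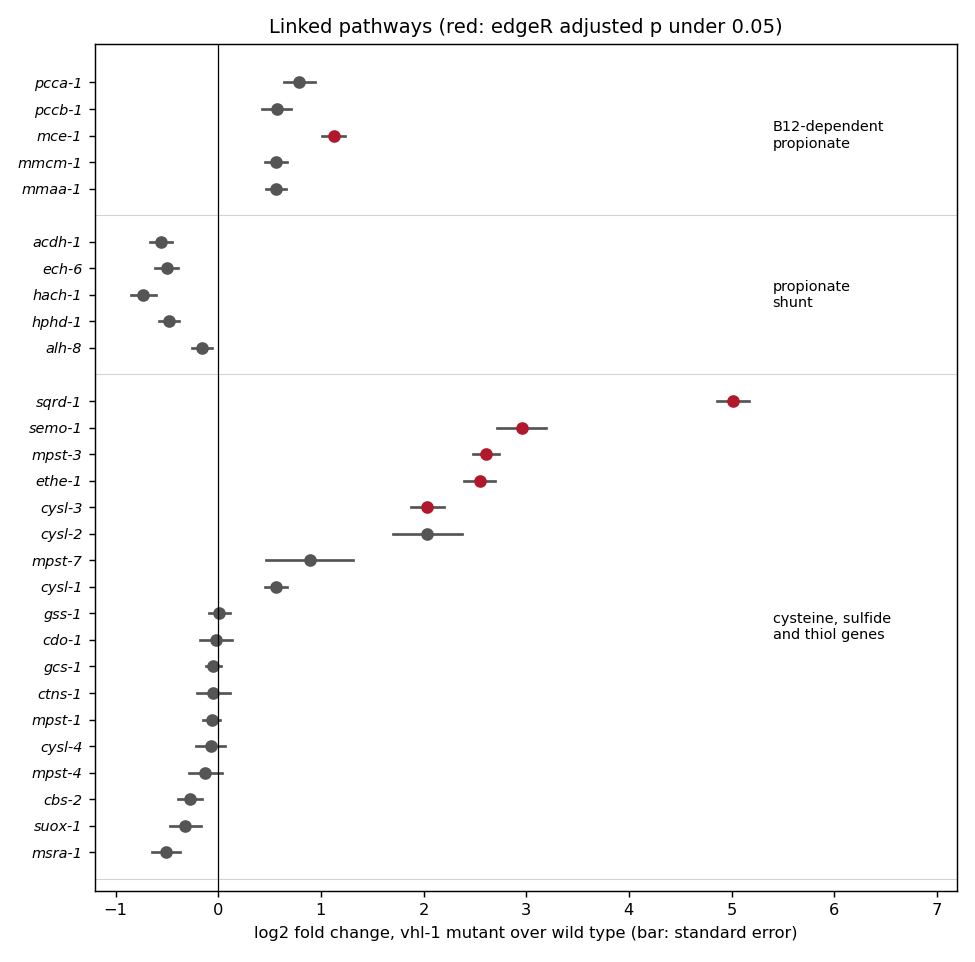
Log2 fold change in *vhl-1* mutants over wild type (horizontal axis) of the genes of both propionate routes and of the 18 tested genes of the cysteine, sulfide and thiol list, with the standard error as a bar and edgeR calls in red. The 5 genes of the B12-dependent route lie between 0.56 and 1.13, the 5 shunt genes between -0.73 and -0.16, and the 5 called sulfide and thiol genes between 2.04 and 5.02.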

How the data were processed

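The authors trimmed single-end 50 bp reads with Trim Galore 0.4.3.1, aligned them with STAR 2.6.0b, counted them per gene with featureCounts 1.6.3 and deposited raw counts, 1 set per library. The genome build, annotation release, strand setting and treatment of reads that map to several genes are not given in the sources used here. Gene names, positions and merged exon lengths came from Ensembl release 115 of WBcel235, in which 46603 of the 46778 identifiers were found.

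The 6 libraries were grouped by genotype from their titles. The main test was that of edgeR 4.0.16 in R 4.3.3 (filterByExpr, TMM, quasi-likelihood test on genotype, Benjamini-Hochberg adjustment over 16596 genes, threshold 0.05). Standard errors and 95% intervals were derived from each fold change with its F value. Shares within a library were compared by exact permutation over 20 arrangements. Alternatives were DESeq2 1.42.0, limma-voom (limma 3.58.1), other normalizations and filters, a stricter threshold, a replicate block, each library left out and, chosen after the data were seen, the oocyte marker level as a covariate. The tests were checked on simulated counts.

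The genes and the lists were chosen with earlier results of these data known. The text names the 10 genes, list genes past the threshold or at a list's extremes, genes whose exons overlap those of the 10, and the 5 genes nearest to *rips-1* in pattern. Other genes named were chosen after their values were seen: *R08F11.1*, *R08F11.4*, *mett-10*, *mthf-1*, *cysl-2*, *gcs-1*, *gss-1*, *cdo-1*, the remaining genes of both propionate routes and *nhr-10*, *nhr-68* and *nhr-114*. Replicates of a genotype differed beyond sampling noise in every pair (chi-square per gene at least 45.8). The planned search for related proteins was not run. The edgeR p-values set the difference between the genotypes against the spread of 3 biological replicates of each, with information on spread shared over genes. Those of the exact permutation compare arrangements of the libraries and cannot fall under 0.1.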

Additional observations from a re-analysis of the deposited data

How the results depend on the processing

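*rips-1* kept its direction and its call under all 15 alternatives, with log2 fold changes from 3.39 to 3.51, the same range as with 1 library left out. Over all genes the 207 calls became 650 with DESeq2, 491 with the oocyte marker level as a covariate, 65 at an adjusted p under 0.01 and between 49 and 161 with 1 library left out. The count of lower genes among the 10 was 2 with DESeq2, with the DESeq2 replicate block and with the oocyte covariate (*cth-1* and *cth-2*), and 1 without a filter (*cth-1*). Deviations from the genotype means had correlations between libraries of equal number of 0.55, 0.44 and -0.016. *vhl-1* replicates 1 and 2 correlated best with their own number, and *vhl-1* replicate 3 with wild type replicate 1 (0.11). The labels give only a number, and these few correlations cannot settle whether libraries of equal number were handled together. With a replicate block edgeR called 354 genes and DESeq2 909. The log2 fold change of *sams-1* ran from -0.12 (without *vhl-1* replicate 2) to 0.33 with 1 library left out. That of *sams-5* was -0.045 without *vhl-1* replicate 1 and -0.016 without wild type replicate 3, and at most 0.18 with any 1 left out. That of *sams-3* was -0.0053 with the counts of *sams-4* added. The difference in the *sams-1* share ran from -2.24 to 3.59 percentage points and that in the *cth-1* share from -5.52 to -3.26 with 1 library left out. The causes were not tested.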

Other observations

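How often a given library is the highest or lowest of its genotype over all genes tested was not counted. For several of the 10 genes *vhl-1* replicate 2 held such a place. It was the highest *vhl-1* library for *sams-1* (1320 CPM, against 739 and 850 CPM in the other *vhl-1* libraries), *ahcy-1* (3994 CPM, against 2968 and 3110 CPM), *cbs-1* (32.7 CPM, against 22.6 and 25.4 CPM) and *cth-1* (21.8 CPM, against 12.2 and 18.5 CPM). It was the lowest for *sams-4* (77.2 CPM), *sams-5* (42.6 CPM) and *rips-1* (735 CPM). For *cth-1* and *rips-1*, however, *vhl-1* replicate 1 (12.2 and 865 CPM) lay farther from the other *vhl-1* libraries than replicate 2 did. In wild type animals *sams-1* and *cbs-1* were lowest in replicate 1, at 709 and 20.5 CPM, the library with the highest oocyte and yolk levels (1423 and 17322 CPM). Both genes were highest in wild type replicate 2, whereas the oocyte and yolk levels were lowest in wild type replicate 3. With the oocyte marker level as a covariate, chosen after the data were seen, *cth-1* and *cth-2* passed the threshold in edgeR, with log2 fold changes of -1.23 (adjusted p = 0.033) and -0.40 (adjusted p = 0.048). The same covariate raised the edgeR calls over all genes tested from 207 to 491.

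*mthf-1*, which encodes the reductase that makes the folate used by methionine synthase, was singled out after its values were seen. It followed the same library order as *sams-1* in *vhl-1* mutants, with 476, 733 and 514 CPM, against 404, 538 and 487 CPM in wild type animals (log2 fold change 0.27, edgeR adjusted p = 0.85). That order in *vhl-1* mutants was not particular to *mthf-1*. *ahcy-1*, *cbs-1*, *cth-1*, *cblc-1* and other genes of the folate and vitamin B12 list had it too, and its share over all genes was not counted.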
